A study of Rattus norvegicus with 4 samples.

Results

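Prostaglandin synthesis and signalling was followed through 10 genes in the myometrium of the rat, the muscle layer of the uterine wall. The genes are the enzymes Ptgs1, Ptgs2, Ptgis, Ptgds and Hpgd and the receptors Ptgfr, Ptger1, Ptger2, Ptger3 and Ptger4. Every probe set to which the platform annotation gives exactly 1 gene symbol, and that symbol is one of the 10, was taken. This gave 16 of the 8799 probe sets on the array, and 10 of 4736 genes with a single symbol. Signals were read on 4 Affymetrix rat arrays, 1 for each group.

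The groups were estradiol benzoate at 24 h, its control at 24 h, estradiol benzoate at 6 h and its control at 6 h. Estradiol benzoate, a long-acting ester of the hormone, was injected under the skin at 10 µg per kg of body weight, and control animals received vehicle. All rats, 60 days old, had lost their ovaries a week earlier, so both treated and control animals lacked ovarian hormones. Each array carried RNA pooled from the myometrium of 6 animals. No group has replicate error, and a difference between 2 arrays compares 2 pools.

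Prostaglandins are made on demand from arachidonic acid, which phospholipases release from membranes. The cyclooxygenases Ptgs1 and Ptgs2 convert it to prostaglandin H, and further synthases turn that into prostacyclin and the D, E and F prostaglandins. In the uterus the F prostaglandin and its receptor Ptgfr, and the E receptors Ptger1 and Ptger3, are linked to contraction, while Ptger2 and Ptger4 raise cyclic AMP and relax smooth muscle. Hpgd, the 15-hydroxyprostaglandin dehydrogenase, inactivates prostaglandins inside cells after carriers such as Slco2a1 have taken them up.

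Signals are in the units of the authors' scaling, with a trimmed mean of 500 on every array. A signal was treated as dim at or below the 40th percentile of its array, the floor. The floors were 89.5 for estradiol at 24 h, 101 for control at 24 h, 103 for the array labelled estradiol at 6 h and 108 for the array labelled control at 6 h. A difference was called when it reached 2-fold, a log2 difference of 1, and the brighter array lay above its floor. Where the dimmer array was at its floor, the fold is a lower bound and carries the words "at least". All 11 smooth muscle markers on the array, among them Acta2, Myh11 and Des, were above the floor on all 4 arrays. Igf1, Pgr, S100g and Hsd11b2, which estrogen induces in the rat uterus, were 7.79-fold, 3.27-fold, 2.74-fold and 7.57-fold higher with estradiol at 24 h. They went against the labels at 6 h, where Igf1 read 704 in the pool labelled estradiol against 7872 in that labelled control. All 8 estrogen targets listed were called higher with estradiol at 24 h. At 6 h 5 of them, these and Oxtr, were called lower with the estradiol label, while C3 and Kap were dim on both arrays and Gja1, dim with the estradiol label, was not called. Directions at 6 h are therefore given for the arrays as labelled. An exchange of the 2 labels at 6 h would turn every 6 h direction given here, and whether one took place was not tested. Both 24 h arrays were scanned on 1 day and both 6 h arrays on another, so the effects of time and of scan day cannot be told apart. The wash record of the 24 h control array ended in a communication error, and its part in the results was not tested.

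Of the 16 probe sets, 3 were above the floor on all 4 arrays, 7 on some of the arrays and 6 on none. The 3 were those of the prostacyclin synthase Ptgis, of Hpgd and 1 of the 3 for the E receptor Ptger3. Ptger1 was dim on every array with both of its probe sets. The other 9 genes passed the floor on at least 1 array.

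**Figure D1:**
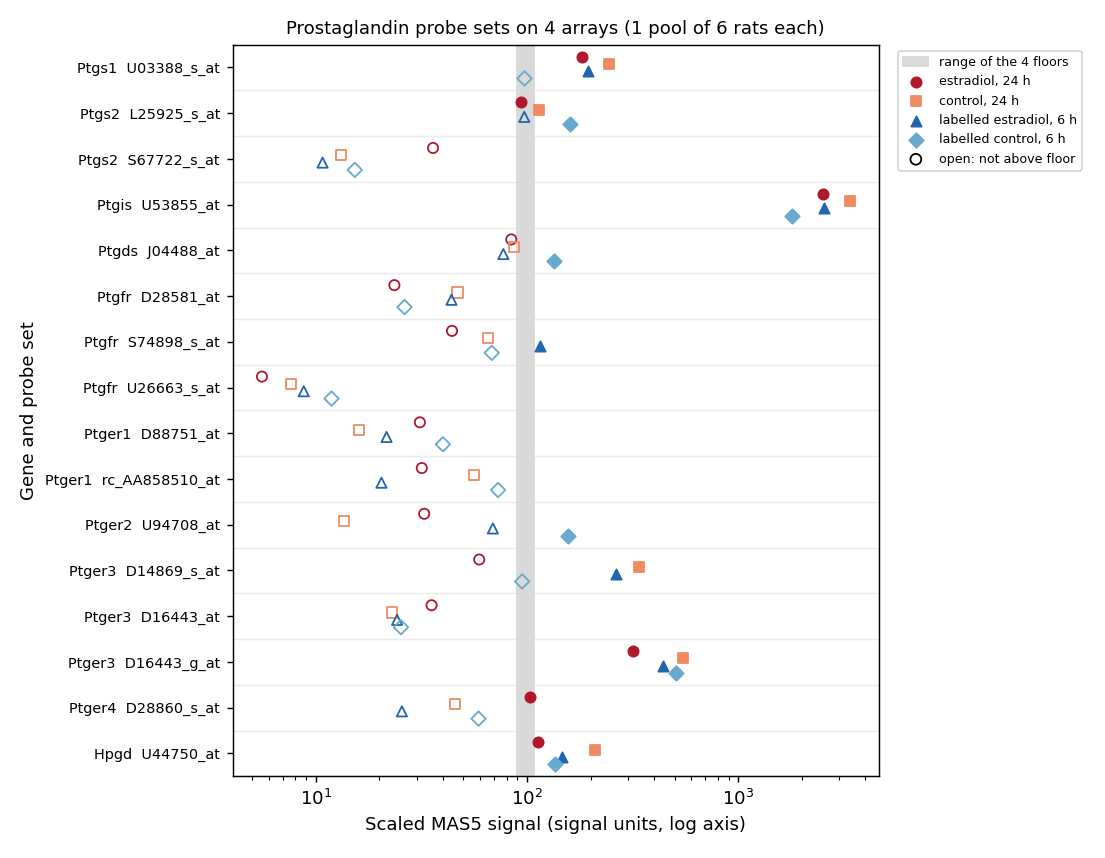
Scaled signal of the 16 prostaglandin probe sets (rows) on a log axis, with 1 point for each of the 4 arrays, filled where the signal is above that array's floor and open where it is not. The grey band spans the 4 floors, 89.5 to 108, and 6 of the rows have only open points.

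Ptger3 was the member with the largest called difference. It encodes an E prostaglandin receptor that lowers cyclic AMP and exists in isoforms with different tails. Its probe set D14869_s_at read 59.4 in the 24 h estradiol pool against 341 in its control, and 265 in the 6 h pool labelled estradiol against 94.8 in that labelled control. The 2 arrays above the floor were thus the 24 h control and the 6 h array labelled estradiol, which are also the 2 arrays low in Igf1 and Pgr. The signal was at least 3.81-fold lower with estradiol at 24 h and higher by a factor of at least 2.45 in the pool labelled estradiol at 6 h.

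A second Ptger3 probe set, D16443_g_at, read 319 in the 24 h estradiol pool against 550.0 in its control, and 439 in the 6 h pool labelled estradiol against 506 in that labelled control. It was 1.72-fold lower with estradiol at 24 h and 1.15-fold lower with the estradiol label at 6 h, neither of which met the 2-fold rule. The third, D16443_at, lay between 22.8 and 35.3 and was dim on all arrays. The 2 measured Ptger3 probe sets were thus lower with estradiol together at 24 h and parted at 6 h. Their log2 differences lay at least 1.14 apart at 24 h and at least 1.5 apart at 6 h, as those of D14869_s_at are bounds. Gaps between pairs of probe sets for 1 gene over the whole array were taken with the same floors. Under 1.14 lay 85.6% of 1701 such gaps at 24 h, and under 1.5 lay 95.7% of 1632 at 6 h. Which Ptger3 isoform each probe set detects is not stated in the annotation used. The call of D14869_s_at was lost with a floor at the 60th percentile, where its log2 difference was -0.58 at 24 h.

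Ptgs1, the cyclooxygenase present in most tissues at rest, had 1 probe set. It read 183 in the 24 h estradiol pool against 244 in its control, and 194 in the 6 h pool labelled estradiol against 97.3 in that labelled control. Only the last of these was dim. The signal was 1.33-fold lower with estradiol at 24 h and higher by a factor of at least 1.80 in the pool labelled estradiol at 6 h, both under the 2-fold rule. Ptgs1 met the rule between the 24 h control and the array labelled control at 6 h, at least 2.25-fold higher on the 24 h control, though it narrowly missed the rule there with a pseudocount in place of the floor. The call was also lost with a floor at the 60th percentile, and when probe sets whose names end in a letter code were left out.

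The stretches before the gene starts of Ptger3 and Ptgs1 are shown because these were the members called in at least 1 comparison, with that of the carrier Slco2a1, described further on, which differed most among the other genes of the pathway. The sequences are RefSeq's on build GRCr8, 250 bases ending just before the annotated start of each gene. They are Ptger3 at chr2:249264832-249265081, Ptgs1 at chr3:39981169-39981418 and Slco2a1 at chr8:112467489-112467738, all on the plus strand. Capitals mark matches on either strand to the searched motifs, which in these 3 were the GC box GGGCGG, the estrogen response half-site GGTCA and the TATA box TATAAA.
Ptger3: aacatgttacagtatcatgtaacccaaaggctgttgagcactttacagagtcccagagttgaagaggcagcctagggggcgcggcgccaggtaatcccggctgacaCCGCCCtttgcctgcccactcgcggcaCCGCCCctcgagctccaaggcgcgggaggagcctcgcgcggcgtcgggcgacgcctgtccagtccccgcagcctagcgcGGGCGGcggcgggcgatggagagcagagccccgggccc
Ptgs1: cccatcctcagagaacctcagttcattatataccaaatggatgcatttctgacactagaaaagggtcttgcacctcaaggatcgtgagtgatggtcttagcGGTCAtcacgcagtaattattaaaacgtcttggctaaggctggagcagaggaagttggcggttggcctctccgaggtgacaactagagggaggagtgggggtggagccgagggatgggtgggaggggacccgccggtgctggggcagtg
Slco2a1: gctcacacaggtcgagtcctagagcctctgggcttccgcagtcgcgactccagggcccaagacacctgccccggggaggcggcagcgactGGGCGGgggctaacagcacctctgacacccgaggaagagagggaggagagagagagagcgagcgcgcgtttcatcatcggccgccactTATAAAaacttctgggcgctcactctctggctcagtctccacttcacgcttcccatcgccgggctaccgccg

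The window of Ptger3 holds 3 GC boxes and is 68.4% G and C. That of Ptgs1 holds 1 estrogen response half-site, 149 to 145 bases before the start, and is 54.4% G and C. The Slco2a1 window holds 1 GC box and 1 TATA box, which lies 72 to 67 bases before the start. Of all 33469 windows of this length, 30.5% hold the GC box, 35.4% the half-site and 12.9% the TATA box, so none of these matches is rare. RefSeq windows were matched for 9 of the 10 members, all but Ptgis. Of the 9, 5 hold the half-site, 5 the GC box and 2 the CCAAT box CCAAT or its complement. The E-box CACGTG is in 1, that of Ptgs2, and the cyclic AMP response half-site TGACG in 1, that of Hpgd. They are in 5.59% and 18.2% of all windows, and CCAAT is in 34.0%. The full estrogen response element, 2 half-sites facing each other across 3 free bases, is in 0 of the 9 and in 8 of all windows, and the AP-1 site TGANTCA is in 0 of the 9 and in 6.34% of all windows. The half-site lies within the full element, and no other motif searched contains another. A match is a run of letters and not a measured binding site.

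Ptgs2, the inducible cyclooxygenase, stayed close to the floor. Its probe set L25925_s_at read 94.0 in the 24 h estradiol pool against 114 in its control, and 97.1 in the 6 h pool labelled estradiol against 161 in that labelled control. It was 1.21-fold lower with estradiol at 24 h and at least 1.57-fold lower with the estradiol label at 6 h. The array labelled control at 6 h was the highest of the 4. The other Ptgs2 probe set, S67722_s_at, lay between 10.8 and 35.9 and was dim throughout. Ptgs2 therefore gave no called difference in either comparison.

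Ptgis, which turns prostaglandin H into prostacyclin, a relaxant of smooth muscle, was well above the floor everywhere. It read 2510 in the 24 h estradiol pool against 3367 in its control, and 2545 in the 6 h pool labelled estradiol against 1790 in that labelled control. The 2 arrays labelled estradiol were nearly level, and the 2 control arrays lay on either side of them. Ptgis was 1.34-fold lower with estradiol at 24 h and 1.42-fold higher with the estradiol label at 6 h. Between the controls it was 1.88-fold higher at 24 h than on the array labelled control at 6 h, which just passed the 2-fold rule under scaling to a common median, with a log2 difference of 1.01. Ptgds, a prostaglandin D synthase, read 84.2 in the 24 h estradiol pool against 86.7 in its control, and 77.3 in the 6 h pool labelled estradiol against 134 in that labelled control. Only the array labelled control at 6 h was above its floor, by a margin that bounds the 6 h difference at only 1.31-fold lower with the estradiol label.

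Hpgd was measured on all 4 arrays. It read 112 in the 24 h estradiol pool against 210 in its control, and 146 in the 6 h pool labelled estradiol against 136 in that labelled control. The 24 h control was the highest array and estradiol at 24 h the lowest. Hpgd was 1.86-fold lower with estradiol at 24 h, under the 2-fold rule, and 1.07-fold higher with the estradiol label at 6 h.

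Among the remaining receptors, each of Ptger2, Ptger4 and Ptgfr exceeded the floor on a single array, and that array differed between them. Ptger2, which raises cyclic AMP, read 32.6 in the 24 h estradiol pool against 13.6 in its control, and 68.9 in the 6 h pool labelled estradiol against 157 in that labelled control. It was at least 1.53-fold lower with the estradiol label at 6 h, and both 24 h arrays were dim. With a floor at the 20th percentile Ptger2 met the 2-fold rule at 6 h, at a log2 difference of -1.19. It also met the rule between the controls, lower at 24 h, at -2.35 with that floor and -1.70 with the pseudocount. Ptger4, the other E receptor of this kind, read 103 in the 24 h estradiol pool against 45.5 in its control, and 25.6 in the 6 h pool labelled estradiol against 58.9 in that labelled control. Its signal with estradiol at 24 h passed the floor of the 24 h control by a factor of only 1.03, so the bound on its difference is near 1.

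Ptgfr, the receptor of the F prostaglandin, had 3 probe sets. S74898_s_at read 44.1 in the 24 h estradiol pool against 65.5 in its control, and 116 in the 6 h pool labelled estradiol against 68.1 in that labelled control. It was above the floor only on the array labelled estradiol at 6 h, at least 1.07-fold higher than on the array labelled control. The other probe sets, D28581_at and U26663_s_at, were dim on all arrays, with highest signals of 46.8 and 11.9. For Ptger1, whose receptor acts through calcium, the higher of its 2 probe sets reached 72.9, on the array labelled control at 6 h. A dim signal limits what can be said of these receptors and does not show that they were absent from the tissue.

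At 24 h 7 of the 16 member probe sets were measured, meaning that 1 or both of the 2 signals passed the floor. Of these, 1 was called, lower with estradiol, where 8.93% of the 5769 probe sets measured at 24 h were called lower and 17.8% in either direction. The log2 difference was below 0 for 6 of the 7 and above 0 for 1. Their median was -0.42, against -0.17 over all measured probe sets. At 6 h 9 were measured and 1 was called, higher with the estradiol label, where 7.45% of 5732 were called higher and 13.2% either way. The median was 0.10, against -0.02 over all measured probe sets. At both times 1 call among so few members is near the background share.

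**Figure D2:**
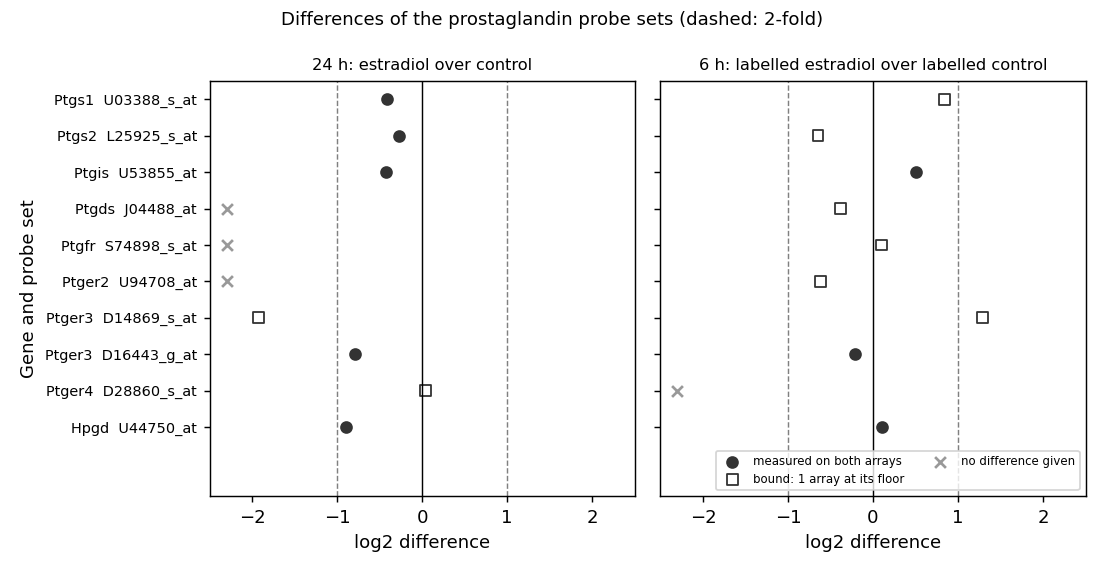
Log2 difference of the 10 member probe sets above the floor on at least 1 array, estradiol over control at 24 h on the left and label over label at 6 h on the right. Filled circles were measured on both arrays, open squares are bounds with 1 array at its floor, grey crosses at the left margin stand for no difference given, and only Ptger3 D14869_s_at lies beyond the dashed 2-fold lines, at -1.93 at 24 h and 1.29 at 6 h.

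The 2 controls, which share the vehicle treatment, were compared in the same way. Of 8 measured member probe sets 2 were called, Ptgs1 and Ptger3 D14869_s_at, both higher on the 24 h control than on the array labelled control at 6 h. Over 5807 measured probe sets 8.94% were called higher and 19% in either direction. Ptger3 D14869_s_at was at least 3.15-fold higher on the 24 h control. Between the 2 arrays labelled estradiol 1 of 8 was called, again Ptger3 D14869_s_at, at least 2.96-fold lower at 24 h than at 6 h, where 9.99% of 5725 were called lower. These comparisons share arrays with those between treatments, and they also span the scan days. With the array labelled control at 6 h in place of the 24 h control, 0 members were called for estradiol at 24 h. With the 24 h control in place of the array labelled control, 0 were called for the estradiol label at 6 h.

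Over all 4 arrays the 3 member probe sets measured on each of them were ordinary in how much they varied. The highest signal over the lowest was 1.88 for Ptgis, 1.86 for Hpgd and 1.72 for Ptger3 D16443_g_at. Over the 4267 probe sets above the floor on all arrays the median of this ratio was 1.82, and 39.4% of them spanned 2-fold or more. Smaller ratios than that of Ptgis were found in 53.8% of these probe sets, than that of Hpgd in 52.8% and than that of Ptger3 in 42.2%. As 0 members measured on all arrays spanned 2-fold, no genes of like profile are named.

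**Figure D3:**
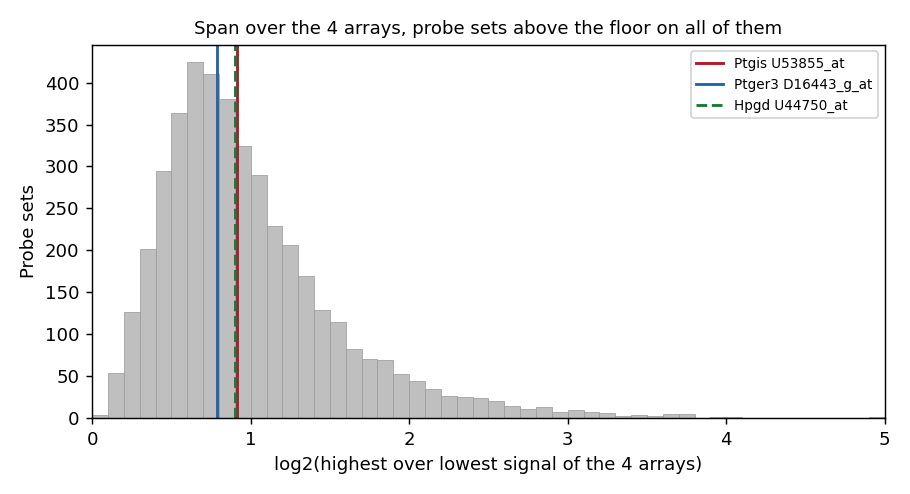
Distribution of the log2 ratio of the highest to the lowest of the 4 signals (x axis) over the 4267 probe sets above the floor on all arrays, as the number of probe sets per bin (y axis). The vertical lines of Ptgis, Ptger3 D16443_g_at and Hpgd stand near the median ratio of 1.82.

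The statistical test run was a limma fit of treatment and time over the 4 arrays, which leaves 1 residual degree of freedom. It called 0 of 6157 probe sets for treatment after Benjamini-Hochberg adjustment, that is 0%, with 104 at an unadjusted p under 0.05. All 10 tested members had an adjusted p of 0.999 in limma. Their lowest unadjusted p in limma was 0.249, for Ptger3 D16443_g_at, whose log2 treatment difference was -0.50 with a standard error of 0.37. The fit takes the 6 h labels as given, so opposite differences at the 2 times cancel in it.

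The wider pathway was described with 56 listed genes of phospholipases, other synthases, receptors, carriers, breakdown enzymes and the lipoxygenase branch, of which 27 were on the array with a single symbol. The brightest probe set stood for its gene. At 24 h 21 of these genes were measured, 1 was called higher with estradiol and 1 lower, where 9.12% and 8.45% of 3442 genes were. Their median log2 difference was -0.52, against -0.17 over all genes. At 6 h 22 were measured, with 4 called higher and 1 lower with the estradiol label, where 6.88% and 5.41% of 3403 genes were. Their median was 0.11, against -0.01 over all genes.

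Slco2a1, the carrier that takes prostaglandins up into cells before Hpgd acts on them, showed the largest difference. Its probe set rc_AA800797_at read 1726 in the 24 h estradiol pool against 226 in its control, and 378 in the 6 h pool labelled estradiol against 1492 in that labelled control. It was 7.65-fold higher with estradiol at 24 h and 3.94-fold lower with the estradiol label at 6 h. The second probe set, M64862_at, read 291 in the 24 h estradiol pool against 144 in its control, and 62.1 in the 6 h pool labelled estradiol against 288 in that labelled control. It was 2.02-fold higher at 24 h and at least 2.81-fold lower at 6 h, values that fell under the rule with a floor at the 60th percentile, at log2 differences of 0.22 and -0.12, and with the pseudocount at 24 h, at 0.81. Both probe sets thus put the 24 h estradiol array and the 6 h array labelled control highest.

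Epithelial markers are given beside Slco2a1. Of 8 on the array, Krt8, Krt18, Krt19, Epcam and Cldn3 were called higher with estradiol at 24 h and Lcn2 lower. At 6 h the 3 keratins and Lcn2 were called lower with the estradiol label. The keratins thus differed in the directions of Slco2a1 at both times, Lcn2 was lower at both, and Muc1 and Cldn7 were called at neither. Their summed signal was 3844 in the 24 h estradiol pool against 1536 in its control, and 981 in the 6 h pool labelled estradiol against 2216 in that labelled control. Krt8, Krt18 and Cldn3 were dim on the array labelled estradiol at 6 h alone, and Epcam on both 6 h arrays, at 58.5 with the estradiol label and 62.6 with the control label. The part of epithelium in the Slco2a1 values was not tested. In pooled tissue, fewer cells of a type and less RNA per cell cannot be told apart.

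Markers of other cell types are given beside Ptger3, which leukocytes among others can also express. Of 11 leukocyte markers on the array, 3 were called higher and 4 lower with estradiol at 24 h, and 0 higher and 2 lower with the estradiol label at 6 h. Their summed signal was 6766 in the 24 h estradiol pool against 8925 in its control, and 7217 in the 6 h pool labelled estradiol against 10022 in that labelled control. The sum was lower with estradiol at 24 h, as was Ptger3 D14869_s_at, and lower with the estradiol label at 6 h, where that probe set was higher. The list did not move as one at 24 h, when Lyz2 was 3.25-fold higher and RT1-Da 3.44-fold lower with estradiol.

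Of 7 endometrial stroma markers, 0 were called higher and 2 lower with estradiol at 24 h, Mme and Vcam1, and 1 higher and 0 lower with the estradiol label at 6 h, Lum. Their summed signal was 21866 in the 24 h estradiol pool against 19390 in its control, and 19583 in the 6 h pool labelled estradiol against 13672 in that labelled control. Dcn was the largest part of each sum, at 13565 against 9686 at 24 h and 10893 against 8887 at 6 h. Dcn and Lum were higher with estradiol or its label at both times, and Vcam1 was lower at both. Mme, Pdgfra, Vim and Thy1 were lower with estradiol at 24 h and higher with its label at 6 h, as was Ptger3 D14869_s_at. Of 4 endothelial markers, 1 was called lower at 24 h, Flt1, and 1 lower at 6 h, Kdr. They summed to 761 in the 24 h estradiol pool against 1348 in its control, and to 1044 in the 6 h pool labelled estradiol against 1325 in that labelled control. Flt1 ordered the arrays as Ptger3 D14869_s_at did, at 169 in the 24 h estradiol pool against 340 in its control, and 298 in the 6 h pool labelled estradiol against 212 in that labelled control. Of the stroma markers, Mme and Thy1 had the same order, with Mme dim in the 24 h estradiol pool. The leukocyte marker Csf1r had it too, but was above the floor only on the 24 h control. Pecam1 and Vwf did not share that full order but went in the directions of Ptger3 D14869_s_at at both times, without a call. Pecam1 read 368 with estradiol against 550 at 24 h, and 377 with the estradiol label against 328 at 6 h. Vwf read 32.5 against 154 and 185 against 80.1, and the lower signal of each pair was dim. Kdr was lower with estradiol or its label at both times. At 6 h Kdr read 184 in the pool labelled estradiol against 705 in that labelled control. The 6 h difference of Flt1, 1.41-fold, was not called, and the 2 lower signals of that Ptger3 probe set were dim. Of 10 mast cell and granulocyte markers only 4 were above the floor on at least 1 array, and 0 were called at either time. Of 4 platelet and blood markers 1 was called, Pf4, lower with estradiol at 24 h. Their sum, mostly Hbb, was 9537 against 14068 at 24 h and 6928 against 10525 at 6 h. Pf4 had the array order of Ptger3 D14869_s_at, at 413 against 1066 at 24 h and 792 against 680 at 6 h. Itga2b was higher with estradiol or its label at both times, Hbb lower at both, and Alas2 higher at 24 h and lower at 6 h. The part of these cell types in the Ptger3 values was not tested. The 11 smooth muscle markers, none of which was called at either time, summed to 126444 in the 24 h estradiol pool against 120137 in its control, and to 89648 in the 6 h pool labelled estradiol against 107385 in that labelled control.

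Among the other synthases and reductases, Akr1c3 was called at 24 h. It belongs to the aldo-keto reductases, whose human member of this name makes F prostaglandins. Its probe set E06822cds_s_at read 94.5 in the 24 h estradiol pool against 361 in its control, and 151 in the 6 h pool labelled estradiol against 241 in that labelled control. It was 3.82-fold lower with estradiol at 24 h and 1.59-fold lower with the estradiol label at 6 h. The second probe set, L32601_s_at, was 1.42-fold lower at 24 h and 1.17-fold higher at 6 h, so the call rests on 1 of 2 probe sets, and it was lost with a floor at the 60th percentile, at a log2 difference of -0.66. Akr1b1, aldose reductase, which can also reduce prostaglandin H, read 3098 in the 24 h estradiol pool against 3515 in its control, and 2611 in the 6 h pool labelled estradiol against 2349 in that labelled control, 1.13-fold lower and 1.11-fold higher. Those values are of its brighter probe set. The second Akr1b1 probe set was 1.42-fold lower at 24 h and 1.76-fold higher at 6 h, both under the 2-fold rule.

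Cbr1, a carbonyl reductase that acts on E prostaglandins among other substrates, was low on a single array. Its probe set D89070cds_s_at read 469 in the 24 h estradiol pool against 675 in its control, and 627 in the 6 h pool labelled estradiol against 183 in that labelled control. It was 1.44-fold lower with estradiol at 24 h and 3.43-fold higher with the estradiol label at 6 h. The second Cbr1 probe set was 1.71-fold lower and 2.63-fold higher, and its 6 h call was lost with a floor at the 60th percentile, at a log2 difference of 0.81. Ptgfrn, a membrane protein that associates with the F receptor and restrains ligand binding, read 1093 in the 24 h estradiol pool against 1846 in its control, and 2023 in the 6 h pool labelled estradiol against 944 in that labelled control. It was 1.69-fold lower with estradiol at 24 h and 2.14-fold higher with the estradiol label at 6 h. Its second probe set was 1.67-fold lower and 2.14-fold higher. The 6 h call of that second probe set was lost with the higher floor or the pseudocount, at log2 differences of 0.59 and 0.92.

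Of the phospholipases, 1 was called. Pla2g6, the calcium-independent enzyme, read 170 in the 24 h estradiol pool against 299.7 in its control, and 407 in the 6 h pool labelled estradiol against 203 in that labelled control. It was 1.76-fold lower at 24 h and 2.01-fold higher at 6 h, just past the rule. The 6 h call was lost with quantile normalization, the higher floor or the pseudocount, at log2 differences of 0.97, 0.66 and 0.85. Pla2g4a, the cytosolic enzyme that supplies arachidonic acid, read 519 in the 24 h estradiol pool against 823 in its control, and 453 in the 6 h pool labelled estradiol against 280 in that labelled control. Its 1.59-fold lower and 1.62-fold higher values were under the rule.

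In the lipoxygenase branch, which makes other products of arachidonic acid, Alox15 was called at 6 h, 2.23-fold higher with the estradiol label by its brighter probe set. That call was lost with the higher floor or the pseudocount, at log2 differences of 0.72 and 0.98.

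Neither of the other measured prostanoid receptors was called. Ptgir, the prostacyclin receptor, read 420 in the 24 h estradiol pool against 398 in its control, and 887 in the 6 h pool labelled estradiol against 474 in that labelled control, which was 1.06-fold higher and 1.87-fold higher. Tbxa2r, the thromboxane receptor, was 1.52-fold lower with estradiol at 24 h and 1.36-fold higher with the estradiol label at 6 h with its brighter probe set.

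**Figure D4:**
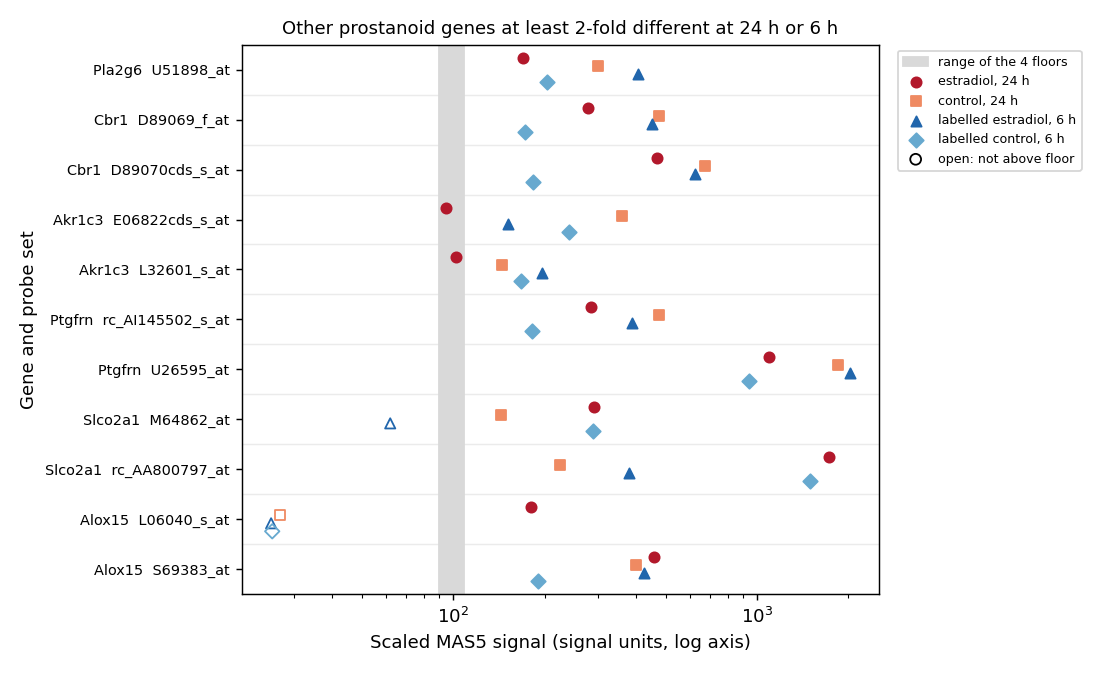
Scaled signal, on a log axis, of all probe sets of the 6 other pathway genes called at 24 h or 6 h (rows), with 1 point for each array, filled where above that array's floor. Slco2a1 is highest on the 24 h estradiol array and the 6 h array labelled control with both probe sets, and Cbr1 and Ptgfrn are lowest on the array labelled control at 6 h.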

How the data were processed

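RNA pooled from 6 rats per group was hybridised to 4 Affymetrix arrays, and the deposited probe set intensities were made with MAS5, per the submitters' processing notes. Neither version nor settings of it are known from those notes. Each deposited column had a 2% trimmed mean of 500. Scan days and the wash error came from deposited instrument records of other values, such as wash temperatures, per the file headers.

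After 59 control probe sets were left out, signals were brought to the same trimmed mean, and values under the 40th percentile of an array were set to it before log2 was taken. The small number of arrays limits the precision, as with 1 in each group no spread between replicates exists, and the 2-fold rule is not a test. Where the array above its floor read under the floor of the other, no difference is given. Gene symbols came from the platform annotation, and the identifiers of all 16 member probe sets were found in RefSeq, with 0 symbols updated. Probe sets whose names end in a letter code may match several transcripts, and 8 of the 16 do. The fit used limma 3.58.1 in R 4.3.3 on probe sets above the floor on at least 1 array, with a threshold of 0.05 after Benjamini-Hochberg adjustment. Both steps were tested on simulated data.

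Named are all members, the other pathway genes called at 24 h or 6 h by their brightest probe set, and 4 estrogen targets that check the labels. Akr1b1, Anxa1, Hpgds, Pla2g4a, Ptgir, Tbxa2r and Tbxas1, second probe sets, single cell type markers and the estrogen targets C3, Gja1, Kap and Oxtr were named beyond that rule after their values were seen. The members and lists were chosen with earlier results of these data known. Alternatives were a floor at the 20th or the 60th percentile, a pseudocount of 50 instead, quantile normalization or a common median between arrays, no letter-coded probe sets, gene values averaged over probe sets, and for limma no filter. Exchanging the controls was added after the data were seen.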

Additional observations from a re-analysis of the deposited data

Results flagged for a closer look

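Ptger3 and Slco2a1 were called in opposite directions at the 2 times, and the difference between the times was not tested. The log2 difference of Ptger3 D14869_s_at was -1.93 at 24 h and 1.29 at 6 h. That of Slco2a1 rc_AA800797_at was 2.94 at 24 h and -1.98 at 6 h, and that of Slco2a1 M64862_at was 1.01 at 24 h and -1.49 at 6 h. Over the whole array 212 probe sets were called in opposite directions at the 2 times and 40 in the same direction, and Igf1, Pgr, S100g and Hsd11b2, which go against the labels at 6 h, also differed in opposite directions.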

How the results depend on the processing

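The floor decided most counts. With a floor at the 20th percentile 1873 probe sets were called at 24 h and 1493 at 6 h, against 1026 and 758, and with one at the 60th percentile 544 and 424. With the lower floor, 2 members were called at 24 h, 3 at 6 h, and 4 from 1 estradiol-labelled array to the other. With the higher floor they were 0 in all 4 comparisons, as they were without letter-coded probe sets. With the pseudocount the arrays labelled estradiol differed in 2 members. With the controls exchanged, chosen after the data were seen, 0 members were called at 24 h and 0 at 6 h. Other pathway genes called numbered 1 at 24 h and 3 at 6 h with the higher floor, 3 at 6 h with the pseudocount, 7 at 6 h with the lower floor, where Hpgds and Tbxas1 made the split 4 higher and 3 lower against 4 and 1, and 4 at 24 h and 2 at 6 h with the controls exchanged. Scaling to a common median moved the split at 24 h to 630 higher and 368 lower, against 511 and 515, and the median of all measured probe sets by 0.14 at 24 h and by 0.22 between the estradiol-labelled arrays; quantile normalization moved the last by 0.13. In limma 0 probe sets were called under its 6 alternatives too, which with 1 residual degree of freedom and a lowest adjusted p of 0.999 says nothing of stability. Of 134 alternative values of member log2 differences, 123 kept their side of the 2-fold rule, 8 passed it, 3 fell under it and 0 of the called ones changed sign. Alternatives that gave no difference, such as those with both arrays at the floor, are not among the 134. Member calls lost in that way with the higher floor are therefore not among the 3. The labels give no replicate numbers, and the limma fit with time as a term is the one that pairs the arrays, by time and scan day together. Signals near the floor, which hold most members, limit all of this.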

Other observations

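Alox15, a lipoxygenase that draws on the same arachidonic acid, was read differently by its 2 probe sets. L06040_s_at read 180 in the 24 h estradiol pool against 27.0 in its control, and 25.2 in the 6 h pool labelled estradiol against 25.4 in that labelled control. It was above the floor only with estradiol at 24 h, at least 1.78-fold higher than the control, and met the 2-fold rule there with a floor at the 20th percentile or with the pseudocount, at log2 differences of 2.55 and 1.58. S69383_at read 457 in the 24 h estradiol pool against 399 in its control, and 423 in the 6 h pool labelled estradiol against 190 in that labelled control, 1.14-fold higher and 2.23-fold higher. Its low array was the one labelled control at 6 h, as for Cbr1 and Ptgfrn. Anxa1, annexin A1, which restrains phospholipase activity, had 2 probe sets that ordered the arrays alike. Its brighter one read 2266 in the 24 h estradiol pool against 1629 in its control, and 997 in the 6 h pool labelled estradiol against 783 in that labelled control, with no 2-fold difference within a time.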
